A study of Homo sapiens with 6 samples.

Results

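The 7 class II and class IV histone deacetylases, HDAC4, HDAC5, HDAC6, HDAC7, HDAC9, HDAC10 and HDAC11, were followed in Kasumi-1 cells with and without the histone deacetylase inhibitor I3. They were chosen by gene symbol and make up 7 of the 29810 genes in the deposited expression table. Each had 1 row and a value in all 6 libraries. 5 of the 7 (HDAC4, HDAC5, HDAC6, HDAC7 and HDAC9) had a mean of at least 0.5 FPKM, the minimum for the main test, and HDAC10 and HDAC11 were under it. FPKM is the number of fragments divided by the exon length of the gene and by the fragments counted in the library.

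mRNA-seq was carried out on 3 control libraries and 3 libraries of cells incubated with 0.25 μM I3 for 48 h, and the control cells received the vehicle DMSO. I3 is a hydroxamate, a class of inhibitors that bind the zinc ion in the catalytic site of these enzymes. Kasumi-1 is an established human line of acute myeloid leukaemia whose t(8;21) translocation produces the RUNX1-RUNX1T1 fusion protein, so the control and the I3 libraries come from the same single line and all carry that fusion. The study's methods state in general that experiments were repeated, and no source used here says that the 3 libraries of a group came from separate cultures. The p-values therefore measure the spread between these libraries, which may be technical.

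The zinc-dependent histone deacetylases are divided by sequence into class I (HDAC1, HDAC2, HDAC3 and HDAC8), class IIa (HDAC4, HDAC5, HDAC7 and HDAC9), class IIb (HDAC6 and HDAC10) and class IV (HDAC11). Class IIa proteins have little catalytic activity of their own, bind MEF2 transcription factors and bring the HDAC3 corepressor complex to them, and leave the nucleus when kinases phosphorylate them and 14-3-3 proteins bind. HDAC6 deacetylates α-tubulin in the cytoplasm, HDAC10 deacetylates polyamines, and HDAC11 removes fatty acyl groups from lysines.

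Depth was 17500320 to 18193373 reads per library, so that 1 read on 1 kb of exon was worth 0.055 to 0.0571 FPKM. All 6 markers of Kasumi-1 and myeloid progenitor cells were present in every library, at 10.5 to 8610 FPKM, with MPO, the granule peroxidase of the myeloid lineage, highest. The 5 lymphoid markers stayed at or under 1.9 FPKM and the 3 erythroid markers analysed at or under 0.136 FPKM. Of the 3 epithelial and fibroblast markers analysed, KRT18 was listed at 0 in all libraries, while the epithelial adhesion gene EPCAM stood at 28.2 to 31.6 FPKM in both groups alike. Libraries differed in how level varied with the GC content of genes. The rank correlation across genes of each library's deviation with GC content was -0.313, 0.446 and 0.337 in control 1, 2 and 3 and -0.232, 0.262 and -0.446 in I3 1, 2 and 3, so it took both signs in both groups.

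No class II or IV member was called as changed after I3. With limma and Benjamini-Hochberg adjustment, 0 of the 5 tested members passed an adjusted p of 0.05 with a log2 fold change of at least 0.58, beside 0% of all 12960 tested genes. At an unadjusted p under 0.05 the count was also 0 of 5, beside 4.93% of all tested genes. The log2 fold changes of the 5 ran from -0.12 to 0.033, with 4 lower and 1 higher after I3 and a median of -0.03, beside a median of 0.011 over all tested genes. All 5 of the 95% confidence intervals lay within 0.58 of 0. voom on the reads rebuilt from FPKM likewise called 0 of 13606 genes. The paper, using DESeq at these thresholds, reported genes both lower and higher after I3. Since no gene at all was called here, the lack of a call does not set the members apart.

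**Figure D1:**
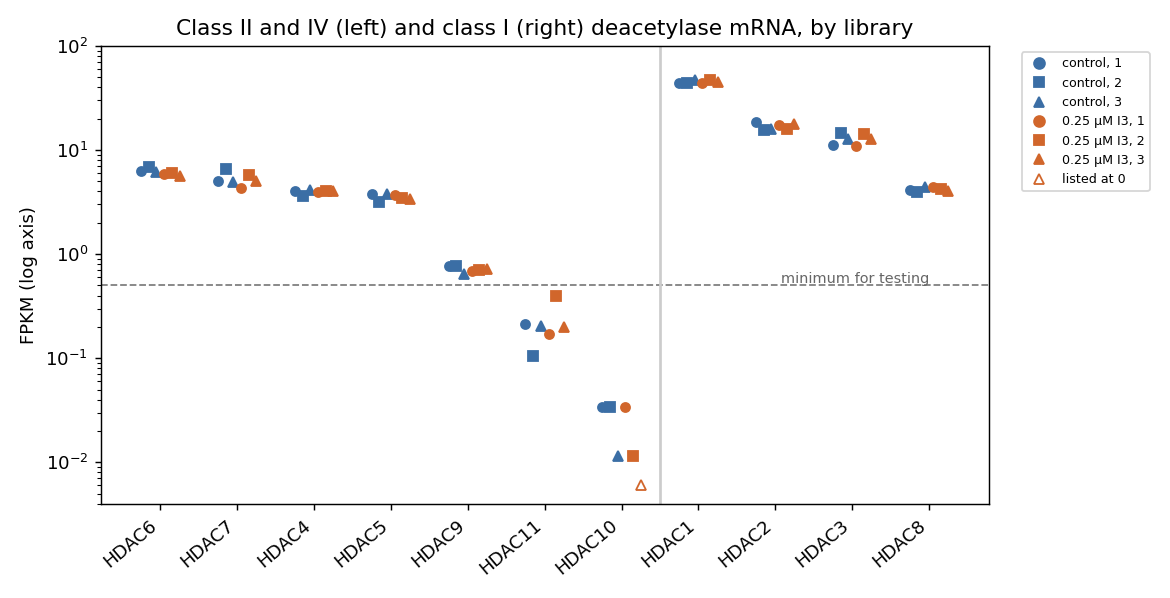
FPKM (log axis) of the 7 class II and IV histone deacetylases (left) and the 4 of class I (right), with 1 point for each of the 3 control and 3 I3 libraries and a dashed line at the minimum of 0.5 FPKM. HDAC1 is highest of all, HDAC6 highest and HDAC10 lowest of the 7, HDAC10 in I3 3 is listed at 0 (open symbol), and control and I3 points overlap for every gene but HDAC6.

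Class IIa was represented mainly by HDAC7, HDAC4 and HDAC5, with HDAC9 lower on the FPKM scale, by a margin that depends on the exon length used. HDAC7 (ENSG00000061273, chr12:47782722-47833132, minus strand, GRCh38), known for its part in lymphocyte and endothelial gene control, had 5.06, 6.51 and 4.91 FPKM in control 1, 2 and 3 and 4.29, 5.77 and 5.05 FPKM in I3 1, 2 and 3. Control 2 and I3 2 were the highest library of their groups, and the groups overlapped. The means were 5.50 ± 0.885 and 5.04 ± 0.739 FPKM (SD, n = 3 each). The log2 fold change was -0.11 (SE 0.14, 95% confidence interval -0.43 to 0.21), with an adjusted p of 0.998 from limma with Benjamini-Hochberg adjustment, and the exact permutation p was 0.5. Without control 2 it was 0.005, and with the levels of each library corrected for GC content it was -0.043.

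Of the 5 tested members, HDAC7 varied most between libraries of one group on the log2(FPKM + 0.5) scale. Its within-group SD on the log2 scale was 0.2, beside a median of 0.116 over 2637 genes of like level, at percentile 86.2 of those genes. The median GC content of its annotated transcripts is 64.1%. The deviation of control 2 from the gene's mean was 0.29 on the log2 scale as deposited and 0.19 after the GC correction, and the part of GC content in the rest was not tested. An antisense gene, ENSG00000268069, overlaps 963 nt (9.7%) of the HDAC7 exons, and ENSG00000276691 and SLC48A1, also on the opposite strand, overlap 117 nt and 32 nt. The libraries were made with a stranded kit, but the sources used here do not say whether strand was used in the counting, so reads of HDAC7 and of the antisense gene may not be separated.

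HDAC4 (ENSG00000068024, chr2:239048168-239401654, minus strand), a repressor of MEF2 targets best known from muscle and cartilage, was at 4.01, 3.61 and 4.10 FPKM in the control libraries and 3.94, 4.04 and 4.03 FPKM after I3. Control 2 was the lowest library and control 3 the highest, and all I3 libraries lay between them. The means were 3.91 ± 0.265 and 4.0 ± 0.0527 FPKM (SD, n = 3 each). The log2 fold change was 0.033 (SE 0.076, 95% confidence interval -0.15 to 0.21), with an adjusted p of 0.998 from limma, and it turned to -0.017 without control 2. HDAC4-AS1 overlaps 101 nt (0.8%) of its exons on the opposite strand and stood at 0 to 0.275 FPKM.

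HDAC5 (ENSG00000108840, chr17:44076746-44123702, minus strand), the close relative of HDAC4 and likewise moved out of the nucleus by calcium-dependent kinases, was at 3.74, 3.14 and 3.80 FPKM in the control and 3.72, 3.45 and 3.38 FPKM in the I3 libraries. Control 2 was again the lowest, and the I3 libraries lay inside the control range. After the GC correction control 2 lay lower still, at -0.23 from the mean of HDAC5 on the log2 scale, against -0.15 as deposited. The means, 3.56 ± 0.364 and 3.52 ± 0.178 FPKM (SD, n = 3 each), gave a log2 fold change of -0.012 (SE 0.093, 95% confidence interval -0.23 to 0.21), with an adjusted p of 0.999 from limma. Its sign changed with the GC correction (0.036) and without control 1 (0.021), control 3 (0.032) or I3 3 (0.012).

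HDAC9 (ENSG00000048052, chr7:18086949-19002416, plus strand), whose gene also gives shorter products that keep the MEF2-binding part and lack the deacetylase domain, was listed at 0.777, 0.765 and 0.645 FPKM in the control and 0.694, 0.698 and 0.715 FPKM in the I3 libraries. The 3 I3 libraries lay close together within the control range. In reads this was 650 in the control libraries together and 636 in the I3 libraries. The log2 fold change was -0.03 (SE 0.15, 95% confidence interval -0.38 to 0.32) on the scale of log2(FPKM + 0.5), which understates changes of low genes. With voom on the rebuilt reads, where a constant is added to the reads and not to FPKM, it was -0.049 (-0.32 to 0.22). The within-group SD of HDAC9, 0.0623, was at percentile 1.64 of 2381 genes of like level. Those genes were matched by level and not by reads, and HDAC9, with 16827 nt of exon, had 190 to 231 reads per library. The part of exon length in this percentile was not tested.

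HDAC6 of class IIb was the highest of the 7 and the only tested member whose groups did not overlap as deposited. HDAC6 (ENSG00000094631, chrX:48801377-48824982, plus strand) stood at 6.25, 6.91 and 6.09 FPKM in the control libraries and at 5.94, 5.97 and 5.61 FPKM after I3. Every I3 library was lower than every control library, and the gap between the closest libraries (6.09 and 5.97 FPKM) was smaller than the range within either group. The means were 6.42 ± 0.438 and 5.84 ± 0.203 FPKM (SD, n = 3 each). The log2 fold change was -0.12 (SE 0.073, 95% confidence interval -0.30 to 0.047), and limma gave an adjusted p of 0.998. The exact permutation p was 0.1, the smallest that 3 libraries against 3 allow.

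That is 1 of 5 tested members (20%) without overlap, beside 9.7% of all tested genes. Without any 1 library, the log2 fold change of HDAC6 lay between -0.16 and -0.073, the latter without control 2. With the levels corrected for GC content the log2 fold change was -0.10 and the groups overlapped, control 3 at -0.023 and I3 1 at -0.019 from the gene's mean on the log2 scale. Summed over each group there were 3539 reads in the control and 3271 in the I3 libraries. The ratio relative to depth was 0.91 with an exact binomial 95% interval of 0.867 to 0.954. This interval covers counting error only and not the spread between libraries. HDAC7, whose groups overlapped, had a ratio of 0.916 (0.869 to 0.966), and the intervals of HDAC4, HDAC5 and HDAC9 included a ratio of 1.

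**Figure D2:**
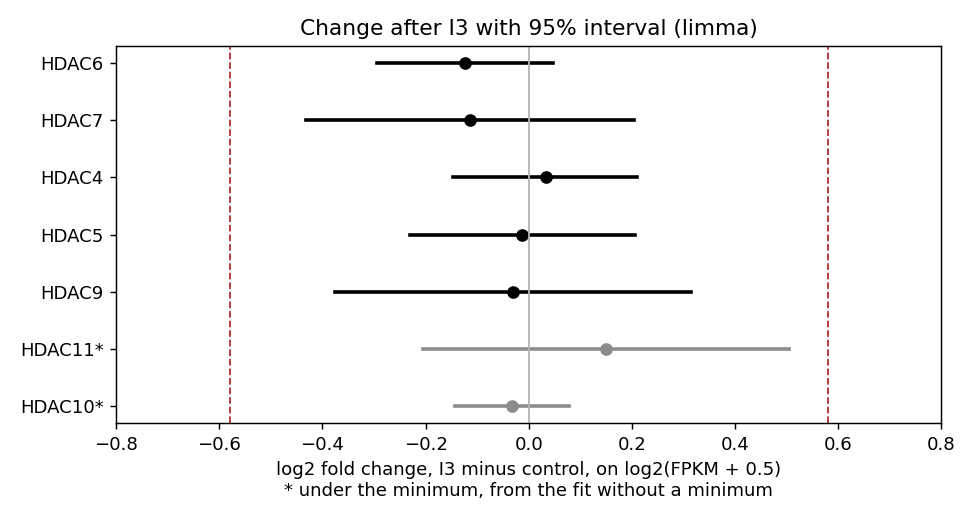
log2 fold change of the 7 members, I3 minus control, on the log2(FPKM + 0.5) scale, with bars for the 95% confidence interval of limma and dashed lines at a change of 0.58 either way. Every interval crosses 0 and lies inside the dashed lines; HDAC11 and HDAC10, in grey, come from the fit with no minimum, where the constant of 0.5 exceeds their levels and narrows their intervals.

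HDAC10, the other class IIb member, was close to undetected. HDAC10 (ENSG00000100429, chr22:50245183-50251405, minus strand) had 0.0343, 0.034 and 0.0115 FPKM in the control and 0.034, 0.0114 and 0 FPKM in the I3 libraries. These are 3, 3 and 1 reads against 3, 1 and 0 reads. The ratio of the summed reads, 4 against 7, was 0.562 with an exact binomial 95% interval of 0.121 to 2.21. Neither a fall nor a rise of this gene was detectable from so few reads.

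The annotation of the HDAC10 locus bears on how these reads are read. Of the 2687 nt and 20 exons of its principal transcript, HDAC10-201, 2329 nt (86.7%) lie inside exons of MAPK12, the gene of the kinase p38γ, which is annotated on the same strand. A single transcript of 11 annotated for MAPK12, the 6248 nt MAPK12-209, runs through HDAC10. Only 358 nt (13.3%) of HDAC10-201 lie outside. They lie in the last exon (267 nt) and in exon 19 (91 nt). Exon 19 is shown here from the GRCh38 reference to show where HDAC10-201 leaves the MAPK12 exons, on the minus strand at chr22:50245675-50245827, 153 nt read 5′ to 3′, with the 91 bases outside every MAPK12 exon in capitals.
HDAC10-201 exon 19: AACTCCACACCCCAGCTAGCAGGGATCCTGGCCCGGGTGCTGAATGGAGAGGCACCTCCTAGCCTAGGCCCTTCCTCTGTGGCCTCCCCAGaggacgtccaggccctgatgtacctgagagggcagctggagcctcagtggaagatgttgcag

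Over all annotated HDAC10 transcripts together the overlap was smaller, 2763 nt (55.8%) of the 4951 nt of exon that FPKM divides by, with 2188 nt outside. HTSeq is named in the submitters' processing notes, and the sources used here do not give its counting mode. MAPK12 itself stood at 5.16, 5.67 and 5.57 FPKM in the control and 4.51, 4.84 and 4.53 FPKM in the I3 libraries. Every I3 library was lower than every control library, with a log2 fold change of -0.22 (SE 0.071) and an adjusted p of 0.867 from limma.

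The same annotation was set beside the levels of other genes. Of 15614 protein-coding genes with a principal transcript, 296 had at least 80% of that transcript inside exons of another gene on the same strand. Their median level was 0.043 FPKM and 81.1% of them were under the minimum of 0.5 FPKM, compared with 3.01 FPKM and 32.7% of the other 15318. The 296 and the 15318 genes were not matched in any other respect. HDAC10, with a mean of 0.0209 FPKM over the 6 libraries, is among the 296, and the part of the overlap in its level was not tested.

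**Figure D3:**
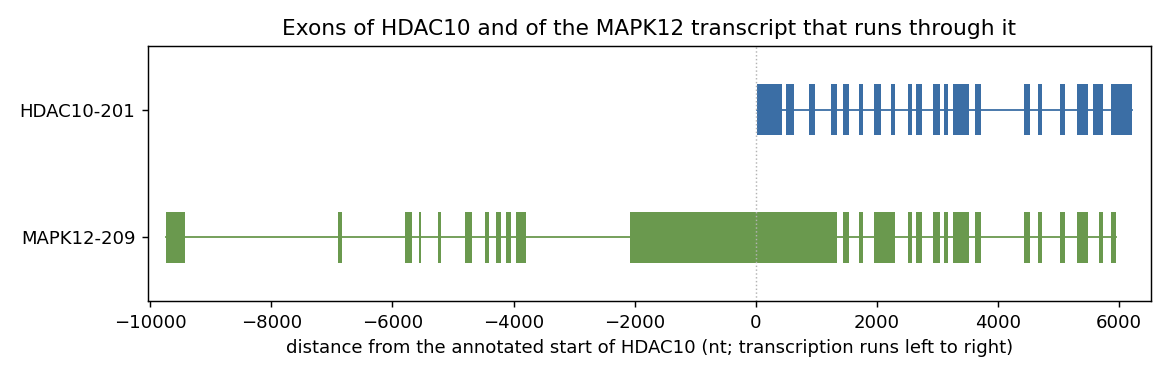
Exons (boxes) of HDAC10-201 and MAPK12-209, with distance in nt from the annotated start of HDAC10 along the direction of transcription on the horizontal axis. Most HDAC10 exons stand above a MAPK12 exon, which leaves 358 nt of HDAC10-201 outside.

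HDAC11, the only class IV member, was low but countable. HDAC11 (ENSG00000163517, chr3:13479724-13506424, plus strand) had 0.214, 0.106 and 0.206 FPKM in the control and 0.170, 0.394 and 0.198 FPKM in the I3 libraries. The highest library was I3 2 with 37 reads, and the other 5 libraries held 10 to 20 reads. The groups overlapped. The log2 fold change was 0.15 (SE 0.15, 95% confidence interval -0.20 to 0.51) in a fit with no minimum, with an adjusted p of 0.899 from limma over 26609 genes. It was 0.022 without I3 2. The summed reads, 72 against 49, gave a ratio of 1.45 with an exact binomial 95% interval of 0.992 to 2.12 for counting error, and voom on the rebuilt reads gave a log2 fold change of 0.49 with an interval of -0.41 to 1.38. HDAC11-AS1 overlaps 330 nt (6.2%) of the exons on the opposite strand.

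The 7 genes kept a fixed order of level per length in every library: HDAC6, HDAC7, HDAC4, HDAC5, HDAC9, HDAC11 and HDAC10. The place of HDAC10 takes all of its exon length as countable. Of that length 55.8% is shared with MAPK12 exons, and the counting mode is not given. HDAC6 was higher than HDAC7 in 6 of 6 libraries by a mean difference in log2 FPKM of 0.23 (SD 0.16), HDAC7 higher than HDAC4 by 0.40 (SD 0.26), and HDAC4 higher than HDAC5 by 0.16 (SD 0.072). The step from HDAC5 to HDAC9 was 2.31 (SD 0.18), a 4.94-fold difference, and that from HDAC9 to HDAC11 was 1.84 (SD 0.65). For each of these 5 neighbouring pairs the two-sided exact sign-flip permutation p was 0.03125, the smallest that 6 libraries allow, and 0.0312 after Benjamini-Hochberg adjustment over the 5 pairs. The order was taken from the means of the same 6 libraries, so these p-values show only that each step repeated across them. The ranges over the 6 libraries overlapped for HDAC6 with HDAC7 and for HDAC4 with HDAC5, although within every library the order held.

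FPKM divides by the length of all annotated exons, which for HDAC9 is 16827 nt against 3210 nt in its principal transcript. With the reads divided by the length of the principal transcript instead, a scale chosen after the data had been seen, the order was the same and the distances were not. HDAC5 was then above HDAC9 by 0.43 on the log2 scale, HDAC7 above HDAC4 by 1.10, and HDAC9 above HDAC11 by 3.40. On that scale, in reads per kb and scaled to depth as FPKM is, HDAC6 was at 15.2, HDAC7 at 12.8 and HDAC4 at 5.89. HDAC5 was at 5.06, HDAC9 at 3.75, HDAC11 at 0.383 and HDAC10 at 0.0385. The length used for HDAC10, 2687 nt, holds only 358 nt outside MAPK12 exons.

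Together the 7 members summed to 19.8 to 21.1 FPKM in the control and 18.8 to 20.3 FPKM in the I3 libraries. Class I summed to 77.7 to 80 and 76.3 to 81.7 FPKM. The 7 members thus made up 19.8 to 21.3% of the summed FPKM of all 11 classical histone deacetylases in the control and 19.2 to 19.9% in the I3 libraries, and these ranges overlap only at their ends. Among the 7, the mean share over the 6 libraries was 30.9% for HDAC6, 26.4% for HDAC7, 20% for HDAC4, 17.9% for HDAC5, 3.61% for HDAC9, 1.08% for HDAC11 and 0.105% for HDAC10. These shares rest on the length of all exons, which for HDAC10 includes exons shared with MAPK12. By the length of the principal transcript HDAC9 made up 8.71%, HDAC5 11.8%, HDAC4 13.7%, HDAC7 29.5% and HDAC6 35.3%. On the FPKM scale class IIa made up 66.5 to 68.1% in the control and 67.3 to 69.4% in the I3 libraries.

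The class I genes were compared with them for level. HDAC1 stood at 44.8 ± 1.74 FPKM in the control and 45.3 ± 1.77 FPKM after I3 (SD, n = 3 each), HDAC2 at 16.8 ± 1.72 and 17.1 ± 0.873, HDAC3 at 12.8 ± 1.71 and 12.7 ± 1.63, and HDAC8 at 4.17 ± 0.215 and 4.23 ± 0.184. On this scale HDAC6 lay between HDAC3 and HDAC7. HDAC8 has the longest exon length of the 11, 22986 nt in the annotation used and 21516 nt by the length that gave whole reads. Its place by principal transcript was not computed. The log2 fold changes of the 4 class I genes ran from -0.015 to 0.027, and 0 of 4 were called. HDAC3 shared with HDAC7 the libraries in which it was highest, control 2 (14.6 FPKM) and I3 2 (14.3 FPKM).

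**Figure D4:**
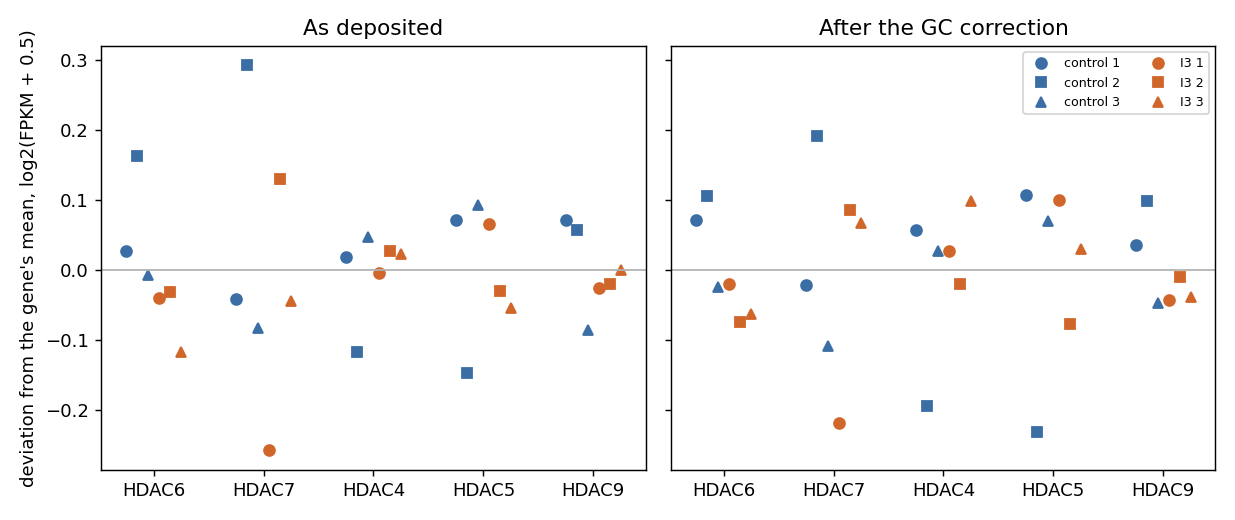
Deviation of each of the 5 tested members from its own mean, on the log2(FPKM + 0.5) scale, in the 3 control and 3 I3 libraries, as deposited (left) and after the GC correction of each library (right). As deposited, HDAC7 departs most, with control 2 at 0.29; after the correction that value is 0.19, control 2 lies lower for HDAC4 and HDAC5, and the HDAC6 groups overlap.

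The partners, regulators and targets of the members were described in 8 lists with 98 genes, of which 94 had a row used here and 77 were tested. With limma and Benjamini-Hochberg adjustment 0 of the 77 were called in either direction, beside 0% of all tested genes. At an unadjusted p under 0.05 there were 2 (2.6%, beside 4.93% of all tested genes), both lower after I3, where the background in that direction was 2.85%, and 0 higher, where it was 2.08%. None of the 77 passed a log2 fold change of 0.58, and their median was -0.022. In 6 of the 77 (7.79%, beside 9.7%) the groups did not overlap. The first of these shares depended on the libraries used. Without control 1 the share of the list genes at an unadjusted p under 0.05 was 15.6%, beside 11% of all genes.

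Among the 9 DNA-binding partners of class IIa proteins, 7 were tested, with a median log2 fold change of 0.008. MEF2C, the MEF2 factor of highest level here, was at 10.8 ± 0.95 FPKM in the control and 12.0 ± 0.972 after I3 (SD, n = 3 each), a log2 difference of 0.14 (SE 0.088). SRF, the serum response factor, was at 26.7 ± 2.12 and 23.5 ± 2.08 FPKM, a log2 difference of -0.18 (SE 0.087). RUNX1, whose reads here may come from the normal gene and from the fusion, stood at 32.4 ± 1.68 and 34.2 ± 1.01 FPKM. The groups overlapped for all 3. MEF2B was at 0.102 and 0.0403 FPKM and, like HDAC10, has most of its principal transcript (97.1%) inside exons of another gene on the same strand.

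The 14-3-3 proteins, which hold phosphorylated class IIa proteins in the cytoplasm, had 6 tested members of 7 and a median of 0.003. YWHAH, the eta form, had 72.6, 75.1 and 70.8 FPKM in the control and 68.4, 57.4 and 55.6 FPKM in the I3 libraries. All 3 I3 libraries were lower, with I3 1 close to the controls. Its log2 fold change was -0.27 (SE 0.083), with an unadjusted p of 0.0128 and an adjusted p of 0.845 from limma. YWHAG, the gamma form, was at 119 ± 2.35 and 125 ± 2.27 FPKM, with all 3 I3 libraries higher by a log2 difference of 0.065 (SE 0.045), and YWHAE, the epsilon form, at 70.0 ± 2.25 and 69.1 ± 2.29 FPKM.

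Of the 24 kinases and phosphatases that act on class IIa proteins, 16 were tested, with a median of 0.002. SIK2, a salt-inducible kinase, was at 6.89, 7.53 and 7.64 FPKM in the control and 8.44, 7.88 and 8.0 FPKM in the I3 libraries, all 3 of which were higher. Its log2 fold change was 0.13 (SE 0.068), with an adjusted p of 0.998 from limma. The related SIK3, named after its values were seen, was also without overlap, at 5.47 ± 0.0584 and 5.82 ± 0.116 FPKM. MARK2, a microtubule affinity-regulating kinase, was lower in all 3 I3 libraries, at 11.9 ± 1.25 and 10.7 ± 0.0987 FPKM (log2 difference -0.15, SE 0.080, and -0.07 without control 2). PRKAA1, a catalytic subunit of AMP-activated kinase, was at 8.75 ± 1.45 and 10.1 ± 0.572 FPKM, and its groups overlapped. The kinases CAMK2A and PRKD1 were listed at 0 in all libraries. Their relatives in the list included CAMK2G at 13.0 and 13.4, PRKD2 at 3.5 and 3.48 and PRKD3 at 10.4 and 11.2 FPKM.

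Of the HDAC3 corepressor complex and the ankyrin adaptors of class IIa proteins, 7 of 8 genes were tested, with a median of -0.015. TBL1XR1, a subunit of the corepressor complex, was at 15.8 ± 3.52 and 17.9 ± 1.91 FPKM. The ankyrin repeat proteins ANKRA2 and RFXANK were at 3.80 ± 0.655 and 3.29 ± 0.206 and at 18.5 ± 0.926 and 17.3 ± 1.69 FPKM, and the groups overlapped for all 3. GPS2, the untested subunit, was at 0.0122 FPKM in the control and 0 in the I3 libraries, and its whole principal transcript (100%) lies inside exons of another gene on the same strand. DHPS of the polyamine list had 84.9% of its principal transcript shared and stood at 20.5 FPKM. The part of these overlaps in the levels was not tested.

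Genes known to be held down through MEF2 and class IIa proteins were tested for 5 of 8, with a median of -0.14. KLF2, a factor of quiescence, was at 1.85, 1.45 and 1.08 FPKM in the control and 1.25, 1.09 and 0.681 FPKM in the I3 libraries, with overlap. Its log2 fold change of -0.38 (SE 0.21) was the lowest of the 77 and had an adjusted p of 0.998 from limma. With 1 library left out it ran from -0.53 without control 3 to -0.21 without I3 3. The immediate early genes JUN and EGR1 were at 12.8 ± 3.28 and 11.6 ± 1.02 and at 1.20 ± 0.35 and 0.932 ± 0.287 FPKM, also with overlap.

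For HDAC6, 16 of 18 substrates and partners were tested, with 0 at an unadjusted p under 0.05 and a median of -0.045. TUBA1C, an α-tubulin, was at 34.4 ± 1.31 and 32.6 ± 1.39 FPKM, and its reads may be divided unevenly with the near-identical TUBA1A and TUBA1B. The peroxiredoxins PRDX1 and PRDX2, whose acetylation HDAC6 removes, were at 129 ± 11.6 and 136 ± 4.84 and at 1.79 ± 0.338 and 1.47 ± 0.153 FPKM. The groups overlapped for these 3 genes. ATAT1, the enzyme that acetylates α-tubulin, was at 2.70 ± 0.386 and 2.38 ± 0.386 FPKM.

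The 13 polyamine genes around HDAC10 had 11 tested members and a median of -0.037. ODC1, the first enzyme of polyamine synthesis, was at 143 ± 2.7 and 133 ± 8.36 FPKM, its inhibitor OAZ1 at 91.6 ± 5.44 and 85.8 ± 2.15, and the acetyltransferase SAT1 at 18.1 ± 2.76 and 16.4 ± 0.315. All 3 overlapped between the groups.

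For HDAC11, 9 of 11 substrates and partners were tested, with a median of -0.057. CDT1, a replication licensing factor, had 45.3, 56.8 and 53.4 FPKM in the control and 41.2, 45.9 and 39.4 FPKM in the I3 libraries. Only I3 2 reached the control range, just above control 1. The log2 fold change was -0.29 (SE 0.097), with an unadjusted p of 0.0186 and an adjusted p of 0.868 from limma. IFNAR2, a chain of the interferon receptor, was higher in all 3 I3 libraries, at 2.44 ± 0.378 and 2.78 ± 0.0627 FPKM. Its closest libraries were control 2 (2.69 FPKM) and I3 2 (2.7 FPKM). The log2 fold change of IFNAR2 was 0.163, and 0.052 without control 3. Of its principal transcript, 67.8% lies inside exons of another gene on the same strand. BABAM2, a subunit of the BRISC deubiquitinase, was at 7.87 ± 0.625 and 7.28 ± 0.216 FPKM with overlap.

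**Figure D5:**
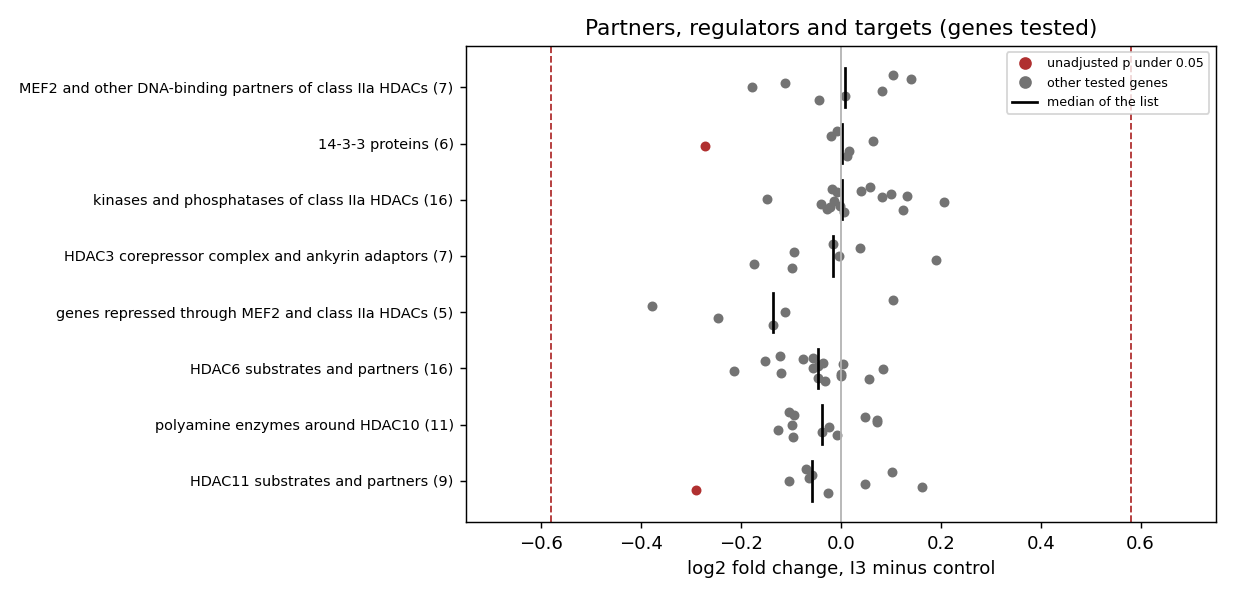
log2 fold change, I3 minus control, of each tested gene (points) in the 8 lists, with the number tested in brackets, a bar at the median of each list and dashed lines at 0.58 either way. The 77 genes lie between -0.38 and 0.21, and the red points are the 2 genes at an unadjusted p under 0.05, YWHAH and CDT1.

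The gene whose pattern over the 6 libraries lay closest to each tested member was found by the smallest root mean square difference in deviation on the log2(FPKM + 0.5) scale. It was SDF2 for HDAC4 (difference 0.0158), HPS3 for HDAC5 (0.018), DAZAP1 for HDAC6 (0.0148), LZTS1 for HDAC7 (0.0435) and CYTH1 for HDAC9 (0.012). With 6 libraries and 12960 genes many patterns lie close. Genes were counted whose difference was under 0.5 times the member's own root mean square deviation from its mean. There were 12 such genes for HDAC4, 26 for HDAC5, 69 for HDAC6, 86 for HDAC7 and 12 for HDAC9.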

How the data were processed

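Per the labels and the paper, the 3 control and 3 I3 libraries are stranded polyadenylated mRNA libraries of Kasumi-1 cells. The labels and methods give 48 h, and a figure legend gives a longer incubation. The paper and labels name the compound I3 and the table's name gives I13. The authors deposited FPKM for 29810 genes. The submitters' processing notes name Trimmomatic, HISAT2, Cufflinks, HTSeq and hg38, without stating their roles. The 7 members, the gene lists and the tests were chosen with earlier results of these data known.

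Genes were matched to GENCODE release 29 on GRCh38 (29703 of 29810), which gave coordinates, exon lengths and GC content (the median over a gene's transcripts). Multiplied by exon length, FPKM gave whole reads (within 0.1) for 95.8% of the 26519 genes above 0 with a length, and the depths follow from this. HDAC6 needed a length of 10412 nt in place of 10602 nt, and HDAC8 of class I needed 21516 nt in place of 22986 nt. limma 3.58.1 in R 4.3.3 (lmFit, eBayes with trend) was run on log2(FPKM + 0.5) for the 12960 genes that averaged at least 0.5 FPKM, two-sided, with Benjamini-Hochberg adjustment, at the study's thresholds (adjusted p 0.05, log2 fold change 0.58). Members under the minimum came from a fit without it, over 26609 genes above 0 in any library. Single values were compared by exact permutation (Python 3.11.15, scipy 1.17.1, pandas 2.3.3; plots with matplotlib 3.10.9). The procedure was tested on simulated data.

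Named were all members, class I, genes that share exons with a member, up to 3 genes per list with the smallest unadjusted p, and 1 most similar gene per member; others are given as levels. Alternatives were pseudocounts of 0.1 and 1, no minimum and a minimum of 1, TPM, median-of-ratios, quantile and GC (lowess span 0.3) scaling, no trend, a replicate block, voom, and each library left out.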

Additional observations from a re-analysis of the deposited data

How the results depend on the processing

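No member was called in any of the alternatives, and 106 of 113 alternative values of the members' log2 fold changes kept their sign, as did 480 of 493 for the other named genes and class I. HDAC6, HDAC9 and HDAC11 kept their sign in all of theirs (HDAC6 -0.16 to -0.073, HDAC9 -0.08 to -0.001, HDAC11 0.022 to 0.49). With the GC correction the sign turned for HDAC5 (0.036), HDAC10 (0.011), HDAC2 (-0.024) and HDAC8 (-0.002), and with quantile normalization for YWHAE (0.002). Without control 1 it turned for HDAC5 (0.021), HDAC1 (-0.003) and JUN (0.083), without control 2 for HDAC4 (-0.017), HDAC7 (0.005), HDAC2 (-0.026), HDAC3 (0.079) and HDAC8 (-0.012), and without control 3 for HDAC5 (0.032). Without I3 1 it turned for HDAC3 (0.078) and HDAC8 (-0.009), without I3 2 for HDAC1 (-0.011) and YWHAE (0.007), and without I3 3 for HDAC5 (0.012) and HDAC2 (-0.003). Over the 6 fits that each left out 1 library, the values ran from -0.017 to 0.065 for HDAC4, -0.089 to 0.032 for HDAC5, -0.207 to 0.005 for HDAC7, -0.011 to 0.048 for HDAC1, -0.026 to 0.107 for HDAC2, -0.106 to 0.079 for HDAC3, -0.012 to 0.054 for HDAC8, -0.235 to 0.083 for JUN and -0.046 to 0.007 for YWHAE. Leaving out 1 library moved the log2 fold change by more than 1.5 times or turned its sign for 7 of 7 members and 24 of 29 other named genes, none of them called. The turned values were all smaller than the standard errors of the fit on all libraries, and the cause was not tested. The count of list genes at an unadjusted p under 0.05 was 2, 4 with the GC correction (5.19%, beside 5.88% of all genes), and 1 to 12 with a library left out. It was 12 without control 1, a share of 15.6% beside 11% of all genes, and 3 without control 3 (3.9% beside 3.77%). It was 1 (1.3%) without control 2, beside 3.56%, and 1 (1.3%) without I3 3, beside 3.62%. Levels by principal transcript, added after the data had been seen, moved HDAC7 over HDAC4 to 1.105, HDAC5 over HDAC9 to 0.432 and HDAC9 over HDAC11 to 3.399 on the log2 scale, since the exon length that divides the reads differs. The shares moved to 35.3% for HDAC6, 29.5% for HDAC7, 13.7% for HDAC4, 11.8% for HDAC5 and 8.71% for HDAC9.

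Same-numbered control and I3 libraries correlated in their deviations from the group mean at 0.0634, 0.151 and -0.0239, and the other pairs at -0.172 to 0.101. Since these ranges overlap, the values cannot tell whether the replicate numbers pair the libraries. With the replicate number as a block, 0 members and 0 list genes were called. At an unadjusted p under 0.05 there were then 3 list genes (3.9%, beside 6.6% of all tested genes). Low read numbers limit HDAC10 (7 reads in the control and 4 in the I3 libraries) and HDAC11 (49 and 72). What keeps them low was not tested.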
